A study of Mus musculus with 19 samples.

Results

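GABA is the main inhibitory transmitter of the forebrain, and 28 genes for its receptors, its synthesis, breakdown and transport, the chloride gradient it acts on and the inhibitory postsynapse were followed in polyA RNA of mouse hippocampal CA1. The genes were taken by symbol from a list that was chosen with earlier results of these data known. They were 28 of 48709 genes in the count files. All 28 passed the filter on low counts (5 counts or more in 50% of libraries or more), as 19297 genes did. RNA-seq was done on 19 libraries in 3 groups, from mice of 7 months of age. WT control (n = 6) were wild-type littermates that received a negative control oligonucleotide in lipid nanoparticles in the dorsal hippocampus. APP control (n = 6) were APPPS1-21 mice given the same control. APP anti-miR-mix (n = 7) were APPPS1-21 mice given inhibitors of miR-148a-3p, miR-181a-5p and miR-146a-5p in the same way. APPPS1-21 mice carry transgenes under Thy1 promoter sequence, which drives expression in neurons, so genotype here means the transgenes and the amyloid they cause together. In the labels the WT titles carry the name of the mixture next to WT control, and they were read as controls, after the study's description. No group without injection was analysed here. The study's water maze groups of this model held both sexes, in unlike proportions. Sex was not in the sample details used here, so its part in the differences between groups was not tested.

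GABA is made from glutamate by the decarboxylases Gad1 and Gad2, packed into vesicles by Slc32a1, taken up again by plasma membrane transporters and broken down by Abat. It opens GABAA receptors, chloride channels assembled from alpha, beta and gamma or delta subunits, and it activates GABAB receptors, G protein-coupled pairs of Gabbr1 and Gabbr2 whose responses are shaped by KCTD subunits. Gephyrin (Gphn) holds GABAA receptors beneath the inhibitory terminal, and neuroligin and other adhesion proteins align both sides. In CA1, most GABA comes from scattered interneurons, while most of the receptors sit on pyramidal cells.

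The inhibited microRNAs and the inhibitors are shown because every comparison with APP anti-miR-mix rests on them. The mature sequences are from RefSeq (GRCm38.p6), with the seed (bases 2 to 8) in capitals. The 3 seeds differ from each other.
miR-181a-5p: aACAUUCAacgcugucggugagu
miR-146a-5p: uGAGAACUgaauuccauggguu
miR-148a-3p: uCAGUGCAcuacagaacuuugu
miR-181a-5p comes from 2 loci, chr1:137966468-137966490 (+) and chr2:38852741-38852763 (+). miR-146a-5p lies at chr11:43374435-43374456 (-) and miR-148a-3p at chr6:51269829-51269850 (-). Each inhibitor is listed by the study as DNA letters, and the bases that pair with the seed are in capitals.
inhibitor miR-181a-5p: actcaccgacagcgtTGAATG
inhibitor miR-146a-5p: acccatggaattcAGTTCTC
inhibitor miR-148a-3p: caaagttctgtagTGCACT
negative control for inhibitor: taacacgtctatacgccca
The inhibitors are exact complements of bases 3 to 23 of miR-181a-5p, 2 to 21 of miR-146a-5p and 3 to 21 of miR-148a-3p, and so cover 6, 7 and 6 of the 7 seed bases. The negative control holds none of these complements.

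The study lists predicted targets of these microRNAs, and its list holds Gabrb1 for miR-146a-5p, Lhfpl4 and Kctd16 for miR-181a-5p, and Slitrk3 for all 3. The letters opposite each seed were searched on the transcribed strand of the longest GENCODE M21 3' untranslated region of each gene: TGAATGT for miR-181a-5p, AGTTCTC for miR-146a-5p and TGCACTG for miR-148a-3p, with no overlap among the motifs. All 28 genes had such a region, with a median length of 2174.5 bases against 960.0 bases over 21037 genes. TGAATGT was found in 4 of the 28 (14.3%) and in 16.4% of all genes, AGTTCTC in 5 (17.9%) and 11.1%, and TGCACTG in 2 (7.14%) and 12.7%. Those to a microRNA for which the gene is listed are shown with 14 bases before and 1 base after, the match in capitals.
Gabrb1, miR-146a-5p, match 1: atatgtatagacagAGTTCTCt
Gabrb1, miR-146a-5p, match 2: cactgatgacttcaAGTTCTCt
Lhfpl4, miR-181a-5p: tagtaagttctgtcTGAATGTg
Slitrk3, miR-148a-3p: taggtccctcagccTGCACTGg
On GRCm38 they lie in the 3' untranslated regions at chr5:72143272-72143293 (+), chr5:72143434-72143455 (+), chr6:113168207-113168228 (-) and chr3:73047860-73047881 (-). The region of Gabrb1 is 12228 bases long, and 67.3% of the 52 regions within 20% of that length hold AGTTCTC. For Lhfpl4 (3768 bases) 37.3% of 1738 such regions hold TGAATGT, and for Slitrk3 (1230.0 bases) 12.5% of 2803 hold TGCACTG. Gabrb1 also held 2 matches to miR-181a-5p and 2 to miR-148a-3p, for which it is not listed. Slitrk3 and Lhfpl4 held neither of the other motifs in this window, and Kctd16 held none of the 3. A match describes letters, not a bound site.

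The libraries had 19362343 to 37018917 counts. Thy1 and App, the genes related to the transgenes, were higher in every APPPS1-21 library (at least 36153 and 65315 normalized counts) than in every WT control library (at most 20734 and 54801). All 4 listed CA1 marker genes were expressed, with summed levels of 23112 to 34627 normalized counts in WT control, 20634 to 30710.4 in APP control and 22151 to 29241 in APP anti-miR-mix. The dentate gyrus list varied widely within each group, with summed levels of 978 to 2755, 1224 to 3397 and 1197 to 3136 in the same order. The choroid plexus list stood apart in WT control 5 and APP anti-miR-mix 6, up to 2450.3 and 1669 summed counts against a median of 705 and 631, and counts of changed genes are given also without both. The tissue is a mix of cells, and fewer cells of a type and less RNA per cell cannot be told apart. The library kit (TruSeq RNA v2) does not mark strand, so reads of an opposite gene can count towards Kctd12, where annotated genes overlap 64.21% of its exonic bases, Slc32a1 (24.92%) and Kctd16 (10.35%), and the values of these genes are uncertain to that extent.

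Levels were compared between genes as normalized counts per kb of annotated exon, in WT control (mean ± SD, n = 6). Gabbr1, the GABAB subunit that binds GABA, had the highest mean of the 28 at 3209.9 ± 164. Slc12a5, the neuronal transporter that extrudes chloride, followed with 2909 ± 193 and overlapped Gabbr1 in range. It lay without overlap above Slc12a2, which carries chloride in (268 ± 47.7). Gabbr2, the subunit that couples to the G protein, stood at 1294 ± 99.9, below Gabbr1 without overlap. Among the KCTD subunits the order was Kctd12 (179 ± 76.6), Kctd8 (97 ± 19) and Kctd16 (90.4 ± 6.9), whose ranges overlapped from each to the next.

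Of the alpha subunits listed, Gabra5, known from extrasynaptic receptors of pyramidal cells, led with 1469.8 ± 304 and overlapped in range with Gabra3 (1117 ± 137). Gabra4 (448 ± 81.7) and Gabra2 (355 ± 80.2) overlapped each other and lay below both. Gabrb2 (712 ± 57.7) exceeded Gabrb1 (472 ± 73.2), and both exceeded the delta subunit Gabrd (256 ± 29), known from tonic inhibition. The gamma subunits were low, with 103 ± 13.8 for Gabrg3 and 87.2 ± 16.7 for Gabrg1.

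Gad1 had 1496 ± 122 per kb and overlapped in range with Abat (1269 ± 61.4). Slc6a11, a GABA transporter of astrocytes (973 ± 79.4), and Gad2 (943 ± 85.8) overlapped each other below Abat, and Slc32a1 was lower (708 ± 65.8). Slc6a13, a GABA transporter known from the meninges, was the least abundant of the 28 at 37.5 ± 13.6. Of the postsynaptic proteins, the adhesion protein Nlgn2 (1667 ± 103) and the receptor partner Shisa7 (1253 ± 144) were the most abundant, with ranges that just met. Lhfpl4, a receptor partner that links to neuroligin, followed (849 ± 49.4), and Iqsec3, an exchange factor that binds gephyrin (667 ± 50.9), Gphn (646 ± 24.3) and Slitrk3, an adhesion protein of inhibitory synapses (578 ± 98.4), overlapped from each to the next.

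**Figure D1:**
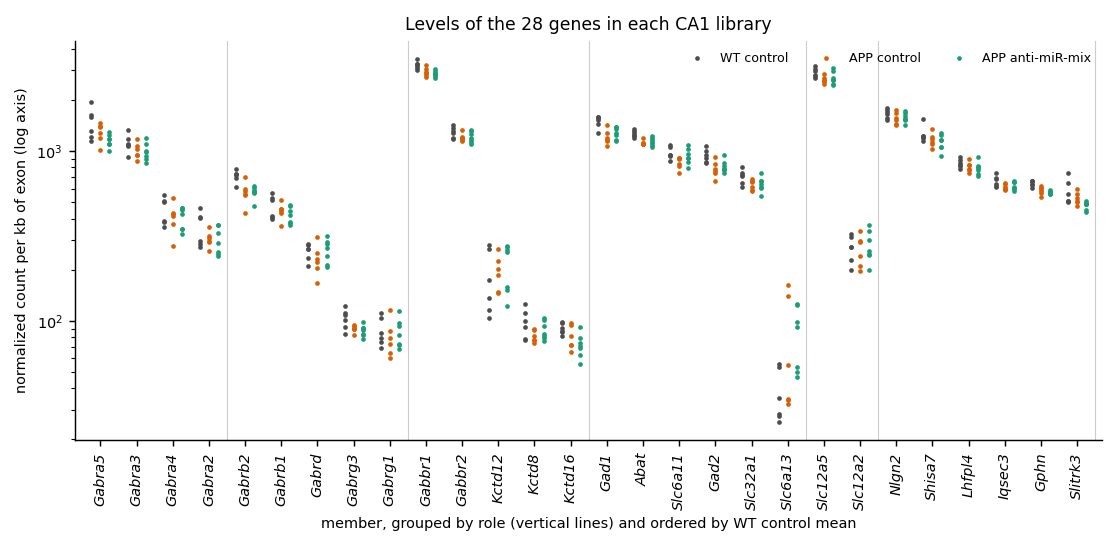
Normalized count per kb of exon on a log axis for each of the 28 genes (x axis), with a point per library coloured by group, and genes grouped by role and ordered by their WT control mean. Gabbr1 and Slc12a5 stand highest, Slc6a13 lowest, and the Slc6a13 points of the APPPS1-21 groups reach above those of WT control.

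The first comparison, APP control against WT control, addresses the effect of the transgenes. In it 5 of the 28 genes changed, all of them lower: Gad1, Gad2 and Abat of GABA synthesis and breakdown, the receptor subunit Gabrb2 and the scaffold gene Gphn (DESeq2, Benjamini-Hochberg adjusted p threshold 0.05). Over all genes tested, 1.05% were called lower. The 28 were chosen with earlier results of these data known, so values over all genes stand beside the list and do not test it. The fitted fold change was below 0 for 26 of the 28, with DESeq2 size factors and with TMM factors, and above 0 for Kctd12 and Slc6a13. The median log2 fold change of the 28 was -0.15, beside -0.01 over all genes tested. edgeR's quasi-likelihood test called 4 of the 28, all of these 5 but Gad2, beside 0.435% of all genes called lower. DESeq2 called 3 (Gad1, Abat and Gphn) without the pair of libraries high in choroid plexus genes, and 3 when WT control 6, APP control 2 or APP control 4 was left out. Calls over all genes, in either direction, were 908 in the main fit and 852 without the pair. They were 663, 676 and 724 without those libraries in turn.

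**Figure D2:**
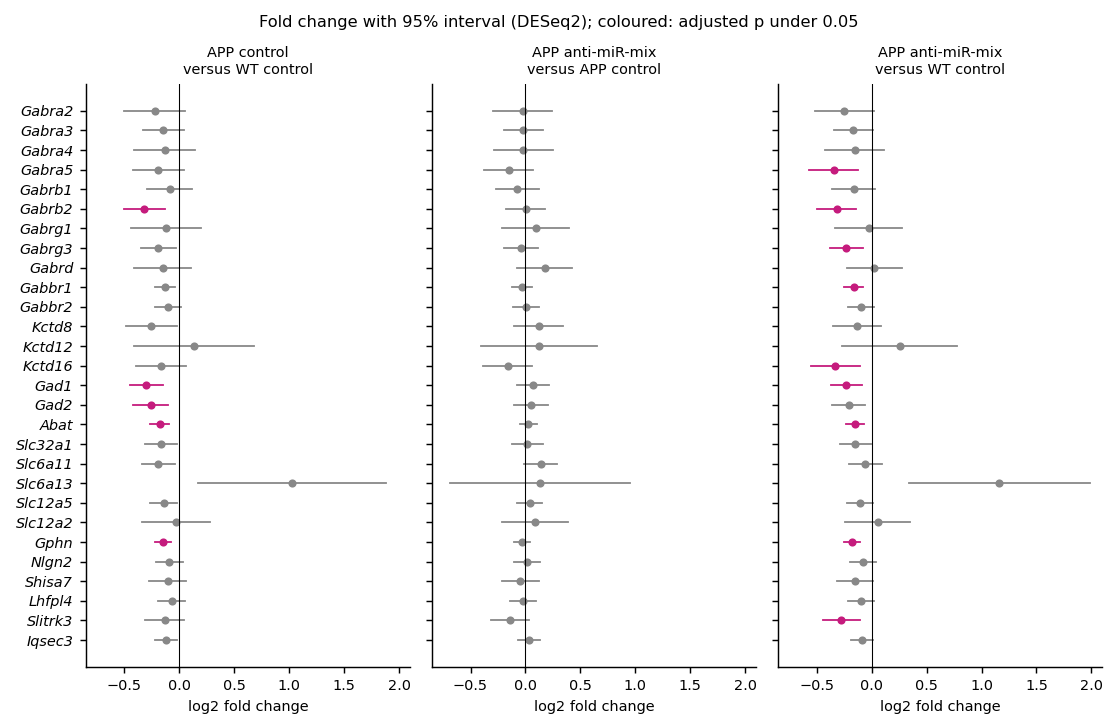
Log2 fold change (x axis) with its 95% interval for each of the 28 genes (rows) in the 3 comparisons (panels), from DESeq2, with genes past an adjusted p of 0.05 in colour. The 5 and 9 coloured genes lie below 0, no gene is coloured between the APPPS1-21 groups, and Slc6a13 has the widest interval.

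Synthesis and breakdown held 3 of the 5. Gad1 (ENSMUSG00000070880, chromosome 2, 70553072 to 70602014), which makes most of the GABA in cell bodies, had lowest, median and highest normalized counts of 9729, 11772 and 12173 in WT control, 8175, 9035 and 10914 in APP control, and 8711, 9696 and 10578 in APP anti-miR-mix. All 6 APP control libraries lay below the WT median, and only the lowest WT library fell into the APP control range. It had a log2 fold change of -0.30 (SE 0.08, DESeq2 adjusted p = 0.00292), and its level fell by 18.7%. The call stayed past the threshold in all 29 alternatives.

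Gad2 (ENSMUSG00000026787, chromosome 2, 22622205 to 22693874), the decarboxylase of axon terminals, had 5010.4, 5471 and 6310.1 in WT control, 3919, 4538 and 5450.3 in APP control, and 4356, 4637 and 5599 in APP anti-miR-mix. The 2 control groups overlapped. Its log2 fold change was -0.26 (SE 0.08, DESeq2 adjusted p = 0.0287). The call was lost with edgeR (adjusted p = 0.0646), with only these groups fitted (adjusted p = 0.0538), without the pair of libraries high in choroid plexus genes (adjusted p = 0.095) and when WT control 2, 5 or 6 or APP control 1, 2, 3 or 4 was left out (adjusted p from 0.0609 to 0.128).

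Abat (ENSMUSG00000057880, chromosome 16, 8513429 to 8621568), GABA transaminase, had 9267, 9786 and 10509 in WT control, 8477, 8588 and 9242 in APP control, and 8204, 8756 and 9549 in APP anti-miR-mix. All 6 APP control libraries lay below all 6 WT libraries. Of all genes, 0.368% were lower without overlap, and Abat was the only gene of the 28. Abat had a log2 fold change of -0.18 (SE 0.04, DESeq2 adjusted p = 0.00144) and passed in all 29 alternatives.

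The other members of this group were not called. Slc32a1, which fills vesicles, had 1722, 2019 and 2239 in WT control, 1625, 1773 and 1907 in APP control, and 1515, 1779 and 2071 in APP anti-miR-mix, with groups that overlapped. It had a fold change of -0.17 (SE 0.08, DESeq2 adjusted p = 0.249) on the log2 scale. Slc6a11 had 4388, 4792 and 5464 in WT control, 3771, 4368 and 4589 in APP control, and 4009, 4615 and 5497 in APP anti-miR-mix. All 6 APP control libraries lay below the WT median, and only the lowest WT library overlapped them. Slc6a11 had a log2 fold change of -0.19 (SE 0.08, DESeq2 adjusted p = 0.154).

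Among the GABAA receptor subunits, all 9 had a fold change below 0 and 1 passed. Gabrb2 (ENSMUSG00000007653, chromosome 11, 42419757 to 42629028), a beta subunit of many synaptic receptors, had 3888, 4609.6 and 4989 in WT control, 2736, 3633 and 4498 in APP control, and 3002, 3705 and 3942 in APP anti-miR-mix. APP control 2 was the lowest library, and the highest APP control library reached into the WT range. Its log2 fold change was -0.32 (SE 0.09, DESeq2 adjusted p = 0.0196). The call was lost when WT control 4 or 6 or APP control 2 or 4 was left out (adjusted p from 0.0503 to 0.0821). The 4 alpha subunits ranged from -0.22 for Gabra2 to -0.13 for Gabra4, none called, and Gabrg3 had -0.19 (adjusted p = 0.182).

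None of the 5 GABAB receptor and KCTD genes passed. Gabbr1 had a log2 fold change of -0.13 (SE 0.05, adjusted p = 0.0795) and Kctd8 of -0.25 (SE 0.12, adjusted p = 0.267). The chloride transporters had -0.14 for Slc12a5 and -0.03 for Slc12a2, neither called.

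All 6 postsynaptic genes had a fold change below 0, and Gphn passed. Gphn (ENSMUSG00000047454, chromosome 12, 78226379 to 78684772) had 2283, 2446 and 2512 in WT control, 2009, 2202 and 2327 in APP control, and 2093, 2137 and 2207 in APP anti-miR-mix. The groups overlapped only where the highest APP control library exceeded the lowest WT library. At a log2 fold change of -0.15 (SE 0.04, DESeq2 adjusted p = 0.00488) its level fell by 9.69%, and it passed in all 29 alternatives. Nlgn2, Shisa7, Lhfpl4, Slitrk3 and Iqsec3 ranged from -0.13 to -0.07, not called.

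Markers of other cells moved in the same comparison. Of 10 interneuron markers, 9 had a fold change below 0 and 3 were called lower: the neuropeptide gene Npy (-0.37, adjusted p = 0.0336), the transcription factor gene Dlx1 (-0.20, adjusted p = 0.0258) and the antisense transcript Dlx6os1 (-0.33, adjusted p = 0.0139). Their summed level was 14469 to 17593 normalized counts in WT control and 13290 to 15598 in APP control, and none of the 10 failed the filter. All 5 general neuron markers had a fold change below 0, with a median of -0.14 and none called, close to the median of the 28 genes. All 5 homeostatic microglia markers had a fold change above 0, with a median of 0.89 and 3 called higher. Of 7 thalamus markers 4 had a fold change above 0 and 1 was called higher, the protein kinase C gene Prkcd (0.62, adjusted p = 8.67e-07). The part of these shifts in the values of Gad1, Gad2, Abat, Gabrb2 and Gphn was not tested.

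**Figure D3:**
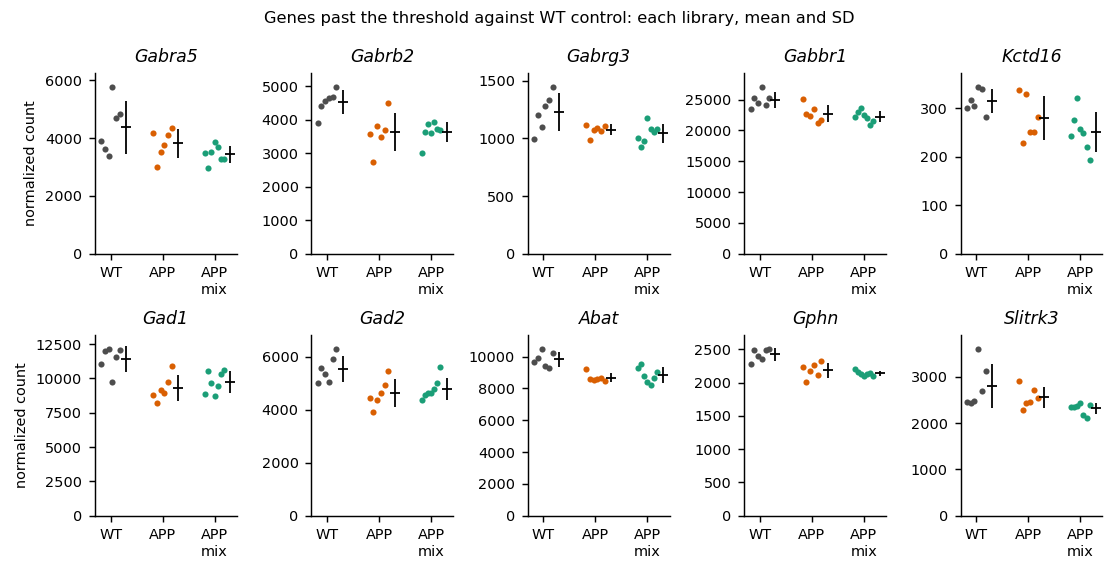
Normalized counts (y axes, from 0) of the 10 genes past the threshold in a comparison with WT control, a point per library in WT control, APP control and APP anti-miR-mix, with mean and SD as a bar at the right of each group. Abat in APP control and Gphn in APP anti-miR-mix lie wholly below WT control, and the other groups overlap.

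The second comparison, APP anti-miR-mix against APP control, addresses the inhibitors within the APPPS1-21 genotype and shares the APP control libraries with the first. None of the 28 genes passed, as 0.0% of all genes did. At an unadjusted p under 0.05 there were also 0 of 28, with DESeq2 and with edgeR, beside 2.86% of all genes with DESeq2. Of the 28, 16 had a fold change above 0 and 12 below, with a median of 0.01. No gene had groups that did not overlap, as against 0.0207% of all genes that lay wholly lower.

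All 6 genes of synthesis, breakdown and transport had a fold change above 0, with a median of 0.06. Slc6a11 had the smallest unadjusted p of the 28. Its values, given above, were higher than all APP control libraries in 4 of the 7 treated libraries, and the other 3 lay within the APP control range. Its log2 fold change was 0.14 (SE 0.07, 95% interval -0.0093 to 0.28, DESeq2 adjusted p = 1). Gad1 had 0.07 (95% interval -0.07 to 0.21) and Abat 0.03 (-0.05 to 0.11).

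The listed targets of the inhibited microRNAs had fold changes below 0. Slitrk3 had 2435, 2579 and 3611 in WT control, 2287, 2504 and 2904 in APP control, and 2119, 2355 and 2445 in APP anti-miR-mix. The treated libraries lay in the lower part of the APP control range or below it. The log2 fold change against APP control was -0.14 (95% interval -0.31 to 0.03). Kctd16, of the GABAB complex, had 282, 309.7 and 344 in WT control, 229, 266 and 337 in APP control, and 193, 249 and 320.2 in APP anti-miR-mix. APP anti-miR-mix and APP control overlapped widely, and 1 of the 7 treated libraries entered the WT range. Kctd16 had a log2 fold change of -0.16 (-0.38 to 0.06). Gabrb1, with 2 matches to the miR-146a-5p seed, had 5481, 6426 and 7817 in WT control, 5001, 6204 and 7106 in APP control, and 5068, 5817 and 6671 in APP anti-miR-mix and a log2 fold change of -0.08 (-0.27 to 0.12). Lhfpl4, with its match to miR-181a-5p, had 4570.2, 4870.0 and 5359 in WT control, 4328, 4662 and 5227 in APP control, and 4147, 4600.2 and 5348 in APP anti-miR-mix. The groups of both genes overlapped, and the log2 fold change of Lhfpl4 was -0.03 (-0.14 to 0.09), which turned to 0.0062 without APP control 1. All 4 had an adjusted p of 1 with DESeq2.

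The third comparison sets APP anti-miR-mix against WT control and so holds genotype and inhibitors together. It shares the WT libraries with the first comparison and the treated libraries with the second. In it 9 of the 28 genes changed, all lower, against 3.37% of all genes called lower: the receptor subunits Gabra5, Gabrb2 and Gabrg3, Gabbr1 and Kctd16 of the GABAB complex, Gad1, Abat, Gphn and Slitrk3. The median log2 fold change of the 28 was -0.15, beside -0.02 over all genes, and 24 of the 28 were below 0. Here too the list was chosen with earlier results known, so the values over all genes do not test it. edgeR called only 2 of the 28, Gabrb2 and Gphn, both lower, beside 1.49% of all genes called lower. DESeq2 called 5 without the pair of libraries high in choroid plexus genes, with Gabrb2, Gabbr1, Abat and Gphn lower and Slc6a13 higher, and 5 when WT control 4, WT control 6, APP anti-miR-mix 1 or APP anti-miR-mix 6 was left out. Calls over all genes, in either direction, were 1727 in the main fit and 1261 without the pair. They were 1208, 1169, 1377 and 1317 without those libraries in turn. Without that pair Gad1, Slitrk3, Gabra5, Gabrg3 and Kctd16 had adjusted p of 0.0503, 0.0817, 0.142, 0.15 and 0.199.

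Gphn passed by the widest margin. All 7 treated libraries lay below all 6 WT libraries, and it was the only gene of the 28 without overlap, beside 0.897% of all genes. Its SD in APP anti-miR-mix was 39.1 normalized counts at a mean of 2139, the smallest relative spread of any of the 28 genes in any group (CV 1.83%). It had a log2 fold change of -0.18 (SE 0.04, DESeq2 adjusted p = 6.39e-05), and it passed in all 29 alternatives. Gabrb2 had -0.32 (SE 0.09, DESeq2 adjusted p = 0.0092), close to its value in APP control, with an adjusted p of at most 0.0454 in all 29. APP anti-miR-mix 1 was its lowest treated library and only the highest treated library entered the WT range.

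Gabra5 (ENSMUSG00000055078, chromosome 7, 57407672 to 57510059) had 3389.6, 4296 and 5783 in WT control, 3002, 3945 and 4339 in APP control, and 2967, 3493 and 3869 in APP anti-miR-mix. WT control spread widely, with WT control 4 the highest of the 19 libraries, and the treated libraries lay below the WT median. WT control 4 also had the highest WT scores, as mean log2(normalized count + 1), of the dentate gyrus list (8.63, others 5.93 to 8.41) and the CA1 list (12.82, others 12.28 to 12.51). Over the 19 libraries, centred on their group means, Gabra5 and the CA1 list had r of 0.49 and rho of 0.37 (permutation p = 0.0333 and 0.118, adjusted p over 11 relations of 0.0732 and 0.216), and r fell to 0.27 without APP control 1 and WT control 4, so that its size depends in part on them. On the log2 scale the fold change was -0.35 (SE 0.11, DESeq2 adjusted p = 0.0309). The call was lost with edgeR (adjusted p = 0.0694), with limma on the deposited table (adjusted p = 0.0617) and when WT control 4, 5 or 6 or APP anti-miR-mix 1, 2, 6 or 7 was left out (adjusted p from 0.0527 to 0.154). Gabrg3 (ENSMUSG00000055026, chromosome 7, 56716465 to 57387188), its neighbour on the chromosome, had 995, 1241 and 1449 in WT control, 987, 1079 and 1119.9 in APP control, and 929, 1051 and 1180.3 in APP anti-miR-mix. Of the 7 treated libraries 5 lay within the WT range, all below its median. The fold change was -0.23 (SE 0.08, DESeq2 adjusted p = 0.0335) on the log2 scale, lost with edgeR (adjusted p = 0.075), with only these groups fitted (adjusted p = 0.0705) and when WT control 2, 4, 5 or 6 or APP anti-miR-mix 1, 2, 3 or 6 was left out (adjusted p from 0.053 to 0.148).

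Gabbr1 (ENSMUSG00000024462, chromosome 17, 37045966 to 37075067) had 23436, 24824 and 27115 in WT control, 21163, 22519.7 and 25084 in APP control, and 20837, 22228 and 23599 in APP anti-miR-mix. Only the highest treated library reached the WT range. It had a log2 fold change of -0.16 (SE 0.05, DESeq2 adjusted p = 0.006), and the call was lost with edgeR (adjusted p = 0.0639) but not when any library was left out. Its partner Gabbr2 had 7871, 8651 and 9565 in WT control, 7692, 7960.5 and 8922 in APP control, and 7365, 7930.5 and 8905 in APP anti-miR-mix. These groups overlapped over most of their ranges, and the log2 fold change was -0.10 (SE 0.06, DESeq2 adjusted p = 0.391). Kctd16, whose values are given above, had -0.33 (SE 0.11, DESeq2 adjusted p = 0.0385). That call was lost with edgeR (adjusted p = 0.0894) and when WT control 2, 3, 4 or 5 or APP anti-miR-mix 1, 4, 5, 6 or 7 was left out (adjusted p from 0.0531 to 0.124).

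The level of Gad1 fell by 14.8%, at a log2 fold change of -0.23 (SE 0.07, DESeq2 adjusted p = 0.0215). The call was lost with edgeR (adjusted p = 0.059), with limma on the deposited table (adjusted p = 0.0675) and when WT control 2, 3 or 6 or APP anti-miR-mix 1 or 4 was left out (adjusted p from 0.0575 to 0.078). Abat had -0.15 (SE 0.04, DESeq2 adjusted p = 0.00529), lost with edgeR (adjusted p = 0.0636) and with limma on the deposited table (adjusted p = 0.0522) but not when any library was left out. Gad2 had -0.21 (SE 0.08, DESeq2 adjusted p = 0.0665), short of the threshold. It passed in 8 of 29 alternatives: with only these groups fitted (adjusted p = 0.0364), with the replicate block (3.48e-05), with limma (0.0306), with the adjustment number (a whole number per library, recovered from the deposited log2 table) as a factor (0.00394), and without WT control 1, APP control 2, APP control 6 or APP anti-miR-mix 7 (0.0147 to 0.0402). Slc32a1 had -0.15 (SE 0.07, DESeq2 adjusted p = 0.215). Slitrk3 (ENSMUSG00000048304, chromosome 3, 73047265 to 73057803) had -0.27 (SE 0.09, DESeq2 adjusted p = 0.0238) on the log2 scale. WT control 4 and WT control 6 were its highest libraries, and the call was lost when WT control 4 or 6 or APP anti-miR-mix 5 or 6 was left out (adjusted p from 0.0577 to 0.103), with the adjustment number as a factor (adjusted p = 0.0571), with edgeR (adjusted p = 0.06) and with limma on the deposited table (adjusted p = 0.0555).

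Beside these values, 3 of the 10 interneuron markers were called lower, Npy (-0.42), Dlx6os1 (-0.27) and Sst, the somatostatin gene (-0.44, adjusted p = 0.00074). The summed level of the list was 12823 to 15002 normalized counts in APP anti-miR-mix. Of the 5 general neuron markers 4 had a fold change below 0 with none called, and 4 of 5 microglia markers were called higher. Of 7 thalamus markers 5 had a fold change above 0 and 2 were called higher, Prkcd (0.60, adjusted p = 6.01e-07) and Lef1 (0.77, adjusted p = 0.00131), with summed levels of 2550 to 4563 normalized counts in WT control and 3452 to 4747 in APP anti-miR-mix. Their part in the result was not tested.

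Pairs of genes with related roles were compared within each library, as log2 ratios of normalized counts with a pseudocount of 1, which leaves out the library size. Slc12a5 had lowest, median and highest counts of 20006, 21408 and 23755 in WT control, 18567, 19341 and 21241 in APP control, and 18273, 19559 and 22998 in APP anti-miR-mix, and Slc12a2 of 2179.5, 2976 and 3533 in WT control, 2131, 2904 and 3697 in APP control, and 2177, 2796 and 4029 in APP anti-miR-mix. All groups overlapped in both genes. The ratio of Slc12a5 to Slc12a2 was 2.90 ± 0.34 (SD, n = 6) in WT control, against 2.80 ± 0.36 (n = 6) for APP control and 2.75 ± 0.42 (n = 7) for APP anti-miR-mix. The ratio of Gabbr2 to Gabbr1 was -1.53 ± 0.07, -1.50 ± 0.05 and -1.46 ± 0.10, and that of Gad2 to Gad1 -1.04 ± 0.11, -1.01 ± 0.05 and -1.02 ± 0.10 in the same order. No ratio differed beyond the spread between libraries: over 9 two-sided exact permutation tests the smallest p was 0.172, for Gabbr2 to Gabbr1 in APP anti-miR-mix against WT control (higher by 0.07), and every adjusted p was 0.81.

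Several of the genes are known to mark a cell type or subfield, and 11 relations between a gene and a marker list were examined across the 19 libraries, after group means had been taken off. Slc6a13 followed the list of 6 fibroblast and meninges genes closely, with Pearson's r of 0.93 and Spearman's rho of 0.92 (permutation p = 1e-05 for both, the smallest that 100000 permutations can give, adjusted p = 0.00011). Without APP control 3 and APP control 5, the libraries farthest from the median of the list, r was 0.88. Slc6a13 had lowest, median and highest counts of 73.8, 91.8 and 161 in WT control, 94.4, 129 and 473 in APP control, and 135, 266 and 364 in APP anti-miR-mix. APP control 3 and APP control 5 stood far above the other 4 APP control libraries, which lay in the WT range. Its log2 fold change against WT control was 1.03 (SE 0.44, DESeq2 adjusted p = 0.192) for APP control and 1.16 (SE 0.42, DESeq2 adjusted p = 0.0576) for APP anti-miR-mix. The second passed in 10 of 29 alternatives, among them without WT control 3 or 5 (adjusted p = 0.0446 and 0.0396) and without APP control 1, 2, 3, 4 or 5 (0.0321 to 0.0449). The fibroblast and meninges list had 5 of 6 genes above 0 in both comparisons, with summed levels of 1777 to 4821 in WT control, 2484 to 5781 in APP control and 2562 to 6597 in APP anti-miR-mix, and 4 of the 6 were called higher in APP anti-miR-mix against WT control. The part of these genes in the values of Slc6a13 was not tested.

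**Figure D4:**
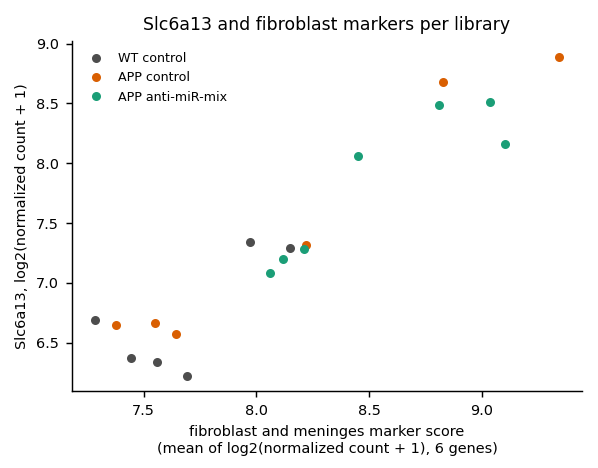
Slc6a13 on the log2(normalized count + 1) scale (y axis) against the fibroblast and meninges marker score (x axis), a point per library coloured by group. The points rise together across all 3 groups, with r of 0.93 after group means were taken off.

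Of the other relations, Slc32a1 with the interneuron list had r of 0.64 and rho of 0.69 (permutation p = 0.00294 and 0.00132, adjusted p = 0.0113 and 0.00726), and r was 0.51 without WT control 4 and APP anti-miR-mix 4. Gad1 with the same list had r of 0.64 and rho of 0.55 (permutation p = 0.00307 and 0.0147, adjusted p = 0.0113 and 0.0539), and r fell to 0.42 without the same libraries, so that its size depends in part on them. Gad2 had only r of 0.28 and rho of 0.18 with it (permutation p = 0.246 and 0.459). Gabrg1 and the astrocyte list had r of 0.54 and rho of 0.46 (permutation p = 0.0162 and 0.0485, adjusted p = 0.0445 and 0.109), with r of 0.38 without WT control 5 and APP control 1. Gabra4 with the dentate gyrus list had r of 0.46 and rho of 0.46 (permutation p = 0.0474 and 0.0496, adjusted p = 0.0869 and 0.109), with r of 0.37 without WT control 4 and APP anti-miR-mix 4. The remaining 5 relations, that of Gabra5 with the CA1 list among them, had adjusted p of 0.0732 or more. Gabrd with the dentate gyrus list had r of 0.26 and rho of 0.21 (permutation p = 0.273 and 0.381), with r of 0.57 without WT control 4 and APP anti-miR-mix 4. Gabra2 with the same list had r of 0.30 and rho of 0.24 (permutation p = 0.209 and 0.328), with r of 0.10 without the same libraries. Gabrg3 with the thalamus list had r of -0.29 and rho of -0.31 (permutation p = 0.228 and 0.196), with r of -0.22 without WT control 4 and APP control 1. Slc6a11 with the astrocyte list had r of -0.18 and rho of -0.07 (permutation p = 0.46 and 0.775), with r of 0.04 without WT control 5 and APP control 1.

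The deposited log2 table differed from the counts by a whole number from 1 to 5 per library times a slope per gene, and the meaning of that adjustment number was not given in the sources used here. The share of mitochondrial counts moved with it, from 2.84% to 3.39% in the 8 libraries of numbers 1 and 2, from 3.76% to 4.87% in the 10 of numbers 3 and 4, and 4.32% in that of number 5, and its part in the values here was not tested. With group means taken off, 8 of the 28 genes rose with the number, beside 15.8% of all genes, and 3 fell, beside 14.1%, with both r and rho past an adjusted p of 0.05 over all genes (permutation tests, chosen after the data were seen). Those that rose were Gabrg1 (r = 0.85, rho = 0.88), Kctd12 (0.85 and 0.82), Gabrb1 (0.83 and 0.83), Gabra4 (0.79 and 0.78), Gad2 (0.78 and 0.77), Gabra2 (0.76 and 0.76), Gabrg3 (0.69 and 0.61) and Gabrb2 (0.63 and 0.68). Those that fell were Iqsec3 (-0.77 and -0.75), Slc12a5 (-0.59 and -0.65) and Lhfpl4 (-0.57 and -0.62). Their permutation p ranged from 1e-05, the smallest possible, to 0.0103. Without WT control 1 and WT control 6, at the ends of the scale, the smallest r in size among the 11 was 0.499, for Gabrg3. Without group means taken off, Gabrb2, Slc12a5 and Lhfpl4 did not pass (adjusted p = 0.132, 0.107 and 0.0877), nor did Slc12a5 and Lhfpl4 without the pair of libraries high in choroid plexus genes (adjusted p = 0.108 and 0.131).

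By number, Kctd12 had 820 to 925 normalized counts in the 3 libraries of number 1 and 1365 to 1703 in the 5 of number 4. Gabrg1 had 476 to 571 and 683 to 916 in the same libraries, and Iqsec3 8758 to 9383 and 7945 to 8418. Each group held libraries of numbers 1 to 4. Within each of the 4 numbers shared by the groups, which hold only 1 or 2 libraries of a group each, the 5 genes called in APP control lay below WT control in 4 of 4. Of the 9 called in APP anti-miR-mix, 8 lay below WT control in 4 of 4 and Gabrg3 in 3 of 4. These genes had been called lower over the same libraries, and the differences within a number were not tested. With the number as a factor in DESeq2, 6 of the 28 genes were called lower in APP control, beside 1.31% of all genes. For APP anti-miR-mix 9 were called lower, beside 3.66%, without Slitrk3 (adjusted p = 0.0571) and with Gad2 (adjusted p = 0.00394).

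**Figure D5:**
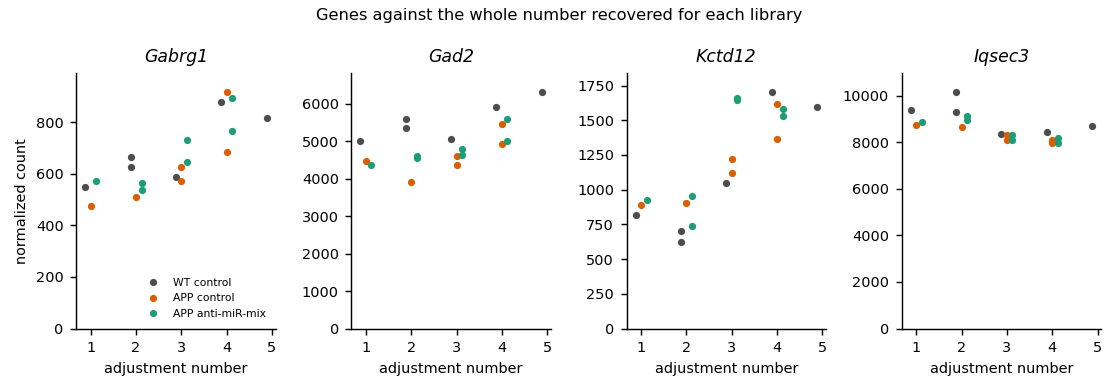
Normalized counts (y axes, from 0) of Gabrg1, Gad2, Kctd12 and Iqsec3 against the adjustment number of the library (x axes), a point per library coloured by group. Gabrg1 and Kctd12 lie wholly higher at numbers 4 and 5 than at 1, Gad2 overlaps between them, and Iqsec3 lies lower at numbers 3 and 4 than at 1 and 2.

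Some of the receptor genes are neighbours. Gabrg1, Gabra2, Gabra4 and Gabrb1 lie in this order on chromosome 5 from 70751047 to 72149037 (GRCm38), and all 4 were among those that rose with the adjustment number. In the main fit none of the 4 was called in any comparison, with log2 fold changes of -0.12, -0.22, -0.13 and -0.09 in APP control against WT control. With the replicate number as a block, Gabra2 and Gabrb1 were called lower in APP anti-miR-mix against WT control (DESeq2 adjusted p = 0.00965 and 0.03). Gabrg3 and Gabra5 lie on chromosome 7 from 56716465 to 57510059, and both were called in APP anti-miR-mix against WT control.

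Further genes of GABA signalling and inhibitory synapses were described as a second list of 38 symbols, of which 37 were in the files and 33 were tested. In APP control against WT control 1 was called lower and 1 higher, where 1.05% of all genes were called lower and 3.66% higher, between the APPPS1-21 groups none was called, and in APP anti-miR-mix against WT control 3 were called lower and 2 higher, where the shares of all genes were 3.37% and 5.59%. The gene called lower in APP control was Fam196a, an inhibitory synapse protein gene, with normalized counts of 265.5 ± 22.9 (SD, n = 6) in WT control, 207 ± 14.7 (n = 6) in APP control, and 238 ± 10.9 (n = 7) in APP anti-miR-mix. Its log2 fold change in APP control was -0.36 (SE 0.08, DESeq2 adjusted p = 0.000181). Slc12a7, another potassium chloride transporter gene, was higher than in WT control both for APP control (0.54, SE 0.17, adjusted p = 0.0295) and for APP anti-miR-mix (0.47, SE 0.16, adjusted p = 0.0407). Slc6a12, which carries betaine and GABA, was higher in APP anti-miR-mix (1.37, SE 0.48, adjusted p = 0.0446) at low levels, with a mean of 13.7 normalized counts in WT control. Lower there were Nsf, an ATPase of vesicle fusion (-0.21, adjusted p = 0.0149), Plcl2, a protein that binds GABAA receptors (-0.18, adjusted p = 0.0442), and Stk39, a kinase of chloride transporters (-0.12, adjusted p = 0.0165). The median log2 fold change of the 33 against WT control was -0.03 for APP control and -0.06 for APP anti-miR-mix.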

How the data were processed

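PolyA RNA of mouse CA1 in 19 libraries (TruSeq RNA v2) was sequenced as 50 nt single-end reads. The deposited counts are raw counts per Ensembl gene, which the authors made with STAR (2.5.2b) on mm10 and featureCounts (Subread 1.5.1) after FastQC (0.11.5). The annotation release is not given in the sources used here. A deposited table on the log2 scale (18825 genes), which the authors had normalized and adjusted, served as an alternative in limma (3.58.1).

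Genes reaching 5 counts in 50% of samples or more were tested with DESeq2 (1.42.0), as in the study, on all 3 groups in a single fit with Wald tests, unshrunken log2 fold changes, independent filtering and Benjamini-Hochberg adjustment (threshold 0.05). Alternatives used edgeR (4.0.16), TMM factors, other filters, other sets of libraries, covariates and each library left out. Normalized counts use DESeq2 size factors. Symbols, positions and exonic lengths are from GENCODE M21. Software was R (4.3.3) and Python (3.11.15), with scipy (1.17.1) on numpy (2.4.6). Fits were tested on simulated data.

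The labels name each library as a separate sample of its group, and do not state that each came from another animal, so p-values measure the spread between these libraries. No 2 libraries of a group were alike within sampling noise (chi-square per gene of 4.94 or more). The members and lists were chosen with earlier results of these data known. The lowest, median and highest library of each group are given for genes past the threshold, the 3 of smallest p between the APPPS1-21 groups, listed targets, Slc6a11 and the ratio pairs, and Slc32a1 and Slc6a13 were added after their values were seen. Paired replicate numbers were checked: the correlations of same-numbered libraries ran from -0.125 to 0.347, and they were not taken as pairs. Differently numbered libraries were not set beside them, so the check cannot exclude pairing. Counting intervals were not used.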

Additional observations from a re-analysis of the deposited data

Results flagged for a closer look

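In 93 groups of 6 or 7 libraries, 28 genes and 3 ratios in each of 3 groups, 5 libraries lay farther from the rest of their group than Dixon's 95% critical value, where chance gives about 1 in 20, or 4.65. Shisa7 had 10223 normalized counts in WT control 4 and 7575 to 8115 in the other 5. Gabbr2 had 8922 in APP control 1 and 7692 to 8039.9 in the others. Abat had 9242 in APP control 1 and 8477 to 8650.4 in the others, and this library was still below all WT control libraries. Gabrb2 had 3002 in APP anti-miR-mix 1 and 3599 to 3942 in the other 6. The log2 ratio of Gabbr2 to Gabbr1 was -1.59 in APP control 4 and -1.50 to -1.44 in the others.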

How the results depend on the processing

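Among the 28 genes, the number called in APP control against WT control was 5, and 4 with edgeR or with only these groups fitted, 5 with TMM factors, no filter, at least 10 counts in every sample, no independent filtering or limma on the deposited table, 6 with the adjustment number, 3 without WT control 5 and APP anti-miR-mix 6, and 3 to 7 with each library left out. In APP anti-miR-mix against WT control it was 9, and 2 with edgeR, 5 without that pair of libraries, 6 with limma, 10 with only these groups fitted, 9 in the other planned fits without a block, and 5 to 11 with each library left out. Between the APPPS1-21 groups it was 0 in all 29 alternatives. With the replicate number as a block the counts were 7, 0 and 12. Calls over all genes, in either direction, moved as well. For APP control they were 908 in the main fit, 621 with edgeR, 852 without that pair and 1228 with the block. They ran from 663 to 1206 with each library left out. For APP anti-miR-mix against WT control they were 1727, 1169, 1261 and 2221 in the same order, and 1169 to 2012 with each library left out. The replicate numbers were not taken to pair the samples, since not every same-numbered pair correlated above 0.1 (-0.125 to 0.347). Without differently numbered pairs beside them this cannot exclude pairing. Replicates 1, 2 and 4 had the same adjustment number in every group. Under the block Slc6a11 and Iqsec3 were called lower in APP control (adjusted p = 0.000408 and 0.0161). For the treated group against WT control, Gabra2, Gabrb1 and Gad2 were called lower and Slc6a13 higher (adjusted p = 0.00965, 0.03, 3.48e-05 and 0.0491), and Kctd16 was not called (adjusted p = 0.0744). The cause of the lower counts with edgeR was not tested. None of the called fold changes changed sign in any alternative. Lhfpl4 between the APPPS1-21 groups ran from -0.0651 to 0.00617 with libraries left out. The difference in the ratio of Slc12a5 to Slc12a2 between those groups was 0.04 without the pair of libraries, and ran from -0.161 to 0.0403 with each library left out. That of Gad2 to Gad1 ran from -0.034 to 0.0162 between those groups and from -0.00623 to 0.0527 against WT control. No ratio passed the threshold in any alternative, the replicate block among them. The r of Slc6a11 with the astrocyte list was 0.0068 without the pair. Precision is limited by the 6 or 7 libraries a group.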
